A study of Mus musculus with 18 samples.

Results

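The nuclear-encoded subunits of the oxidative phosphorylation system were followed on 18 Affymetrix arrays of RNA from the mouse macrophage line RAW. Members were chosen by symbol alone, from the annotation of probe sets with 1 gene: the Ndufa, Ndufb, Ndufc, Ndufs and Ndufv genes with Ndufab1, Sdha to Sdhd, the Uqcr genes, Cox4i1, the Cox5 to Cox8 families and the Atp5 genes. This gave 80 genes on 167 probe sets, out of 18193 genes with a symbol. A gene's value was that of its probe set with the highest mean. Of the 80 members, 77 passed the filter on dim probe sets and were among the 12257 genes tested: 33 in complex I, 4 in complex II, 8 in complex III, 15 in complex IV (Ndufa4 was placed here) and 17 in complex V. Ndufb4, Cox6b2 and Cox7b2 did not pass, with intensities of at most 10.1, 16.6 and 7.0 on any array.

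Unstimulated cells stayed in medium, and the others received R848, an agonist of Toll-like receptor 7, at a dose that the labels give as 0.1 mM. Stimulated cells received R848 alone, R848 with 1 uM apilimod, an inhibitor of the lipid kinase PIKfyve, or R848 with 1 uM API09, which the study included as an inactive analog of apilimod. Each of these 3 arms and the medium arm had 1 array at 1, 3, 7 and 22 h, and medium had 2 arrays at 0 h. The labels do not say that the arrays came from separate cultures, so the spread behind the p-values below may be only technical.

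The products of these genes sit in the inner mitochondrial membrane. Complex I (NADH dehydrogenase) and complex II (succinate dehydrogenase, also an enzyme of the citric acid cycle) pass electrons to ubiquinone, complex III passes them to cytochrome c, and complex IV passes them to oxygen. Complexes I, III and IV pump protons, and complex V (ATP synthase) uses the returning protons to make ATP. Macrophages activated through Toll-like receptors are known to turn towards glycolysis.

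The promoters of several members carry matches to motifs of factors known to act on respiratory genes. RefSeq windows of GRCm38.p6 were found for 64 of the 77 tested members (69 windows), and the 250 bases before each start site were searched on both strands. The NRF1 motif (GCGC, any base, then TGCGC) was present in 15.9% of member windows and in 3.74% of all 32851 windows. The ETS motif CCGGAAG, the kind of site bound by the GABP factor, was present in 17.4% and 6.91%, and the ERR motif TCAAGGTCA in 1.45% (1 window, of Atp5g3) and 0.387%. A match is a description of the letters and no evidence of binding. The 150 bases before the start site are shown for 4 members named in the results below, which were chosen by hand. Each lies on the minus strand, at chr9:50603850-50603999, chr4:116075071-116075220, chr10:80406822-80406971 and chr19:3912775-3912924. They are printed 5′ to 3′, with motif matches in capitals. CTTCCGG is the ETS motif, and GCGCACGCGC in Sdhd the NRF1 motif, read on the other strand. Sdhd holds an NRF1 and an ETS match, Uqcrh and Uqcr11 an ETS match, and the 3 motifs were not found in the window of Ndufs8. These 4 do not stand for the other members. Atp5j2 and Atp5g1, which had large falls with R848 at 22 h, held none of the 3 motifs, and Atp5g3 held the ERR match only. Whether a motif goes with a change was not tested.
Sdhd: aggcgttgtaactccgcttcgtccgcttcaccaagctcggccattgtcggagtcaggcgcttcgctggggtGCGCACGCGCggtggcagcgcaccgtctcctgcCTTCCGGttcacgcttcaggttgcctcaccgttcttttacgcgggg
Uqcrh: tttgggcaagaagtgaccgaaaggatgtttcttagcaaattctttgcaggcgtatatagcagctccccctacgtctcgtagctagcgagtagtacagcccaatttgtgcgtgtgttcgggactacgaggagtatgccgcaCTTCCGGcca
Uqcr11: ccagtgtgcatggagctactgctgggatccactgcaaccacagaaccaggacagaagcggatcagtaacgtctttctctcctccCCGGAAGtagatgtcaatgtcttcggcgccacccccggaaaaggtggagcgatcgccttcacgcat
Ndufs8: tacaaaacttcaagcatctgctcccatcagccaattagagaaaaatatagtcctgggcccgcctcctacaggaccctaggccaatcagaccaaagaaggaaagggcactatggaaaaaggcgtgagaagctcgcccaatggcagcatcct

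The values are linear intensities, and differences are given as log2 differences ± SE of intensity plus 16. Arms were compared with limma, with Benjamini-Hochberg adjustment over the 12257 genes and a call at an adjusted p of 0.05, two-sided. Within an hour, the R848 and R848+API09 arrays were taken as one group of 2, called the R848 controls here. Together with the 2 medium arrays at 0 h, these pairs supplied the spread, and the single medium and R848+apilimod arrays are assumed to vary like them. The small number of arrays limits the precision, and the median SE of a member's difference was 0.09. RNA was taken in bulk, so fewer cells of a kind and less RNA per cell cannot be told apart.

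All 10 macrophage markers were above the filter level of 18.1 on the 18 arrays, and their summed intensity was 51506 to 57390 in medium and 45992 to 57924 in stimulated cells. Markers above that level on all arrays numbered 2 of 5 for T cells, 1 of 4 for B cells, 1 of 5 for fibroblasts, 2 of 5 for epithelial cells, 1 of 4 for endothelial cells and 2 of 5 for muscle, with a summed intensity of at most 156 for any of these lists. The R848+API09 array at 22 h stood apart from the rest. Its median log2 value over the genes tested was 7.03, against 7.19 to 7.38 on the others, and its Actb 3′ to 5′ ratio was 1.40, against 1.08 to 1.30. Its 18S control was the highest, at 10.53, but the R848+API09 array at 7 h was near, at 10.14. The remaining arrays had 7.94 to 9.45. The median absolute log2 difference between the R848 and R848+API09 arrays over the members was 0.13 at 22 h and 0.03 to 0.05 at the earlier hours. Counts and calls at 22 h that move by over 1.5 times or are lost without that array are given so too. Member counts from fits with an array left out as a check lack the share of all genes in that fit. So do member counts at an unadjusted p under 0.05 by limma. Neither kind is a result about the members as a group.

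In medium, the subunit genes as a group lay higher at 22 h than at 0 h. Of the 77 members, 32 rose and 2 fell, while over all genes 11.2% rose and 10.8% fell; the members' median difference was 0.24 and that of all genes 0.01. The risers were 14 of 33 members in complex I, 2 of 4 in II, 5 of 8 in III, 7 of 15 in IV and 4 of 17 in V. The 2 that fell were Ndufb1 and Cox7c, both dim. Cox7c read 48.6 and 47 at 0 h and 30.3 at 22 h. No member passed at 1, 3 or 7 h in medium, where 0.408%, 0.971% and 0.343% of all genes did, with 1, 1 and 11 members at an unadjusted p under 0.05 by limma, and limma with trended and robust variances called 1 member lower at 1 h. The calls at 22 h rest on the pair at 0 h: without either of those arrays, 12 or 13 members rose, and without either control at 22 h 48 did.

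Among the members that rose in medium, Uqcrq, a small subunit of complex III, read 1992 and 1989 at 0 h and 1977, 2018, 2406 and 3016 at 1, 3, 7 and 22 h. Its difference at 22 h was 0.60 ± 0.09 (adjusted p = 0.00111). Cox7a2l, a factor that joins complexes III and IV into supercomplexes, stood at 1644 and 1694 at 0 h, at 1657, 1608 and 1744 at 1, 3 and 7 h and at 2663 at 22 h, a rise of 0.67 ± 0.09 (adjusted p = 0.000708). In both genes the array at 22 h lay above every earlier medium array. The largest rise was that of Cox7a1, the muscle form of subunit 7a of cytochrome oxidase, which read 48.3 and 41.4 at 0 h and 38.6, 36.3, 55.6 and 113 at 1, 3, 7 and 22 h (1.09 ± 0.19, adjusted p = 0.0023). Cox6a2, the muscle form of subunit 6a, rose by 0.68 ± 0.12, from 76.7 and 90.7 to 143. Ndufb8, an accessory subunit of complex I, rose by 0.51 ± 0.09 and the iron-sulfur subunit Ndufs8 by 0.50 ± 0.11. In complex II the membrane anchors Sdhd and Sdhc both rose by 0.32 ± 0.09, and in complex III Uqcr11 and Uqcrh both by 0.36, with SE of 0.10 and 0.09. In complex V, Atp5e, the epsilon subunit, rose by 0.53 ± 0.09, Atp5o by 0.38 ± 0.09 and Atp5k by 0.31 ± 0.09. Cox8a, the common form of cytochrome oxidase subunit 8, rose by 0.51 ± 0.09. The medium array at 22 h is thus a moving reference for the stimulated arms of that hour, and for the counts and most named members of R848 at 22 h, differences from 0 h are given beside those from medium at 22 h.

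**Figure D1:**
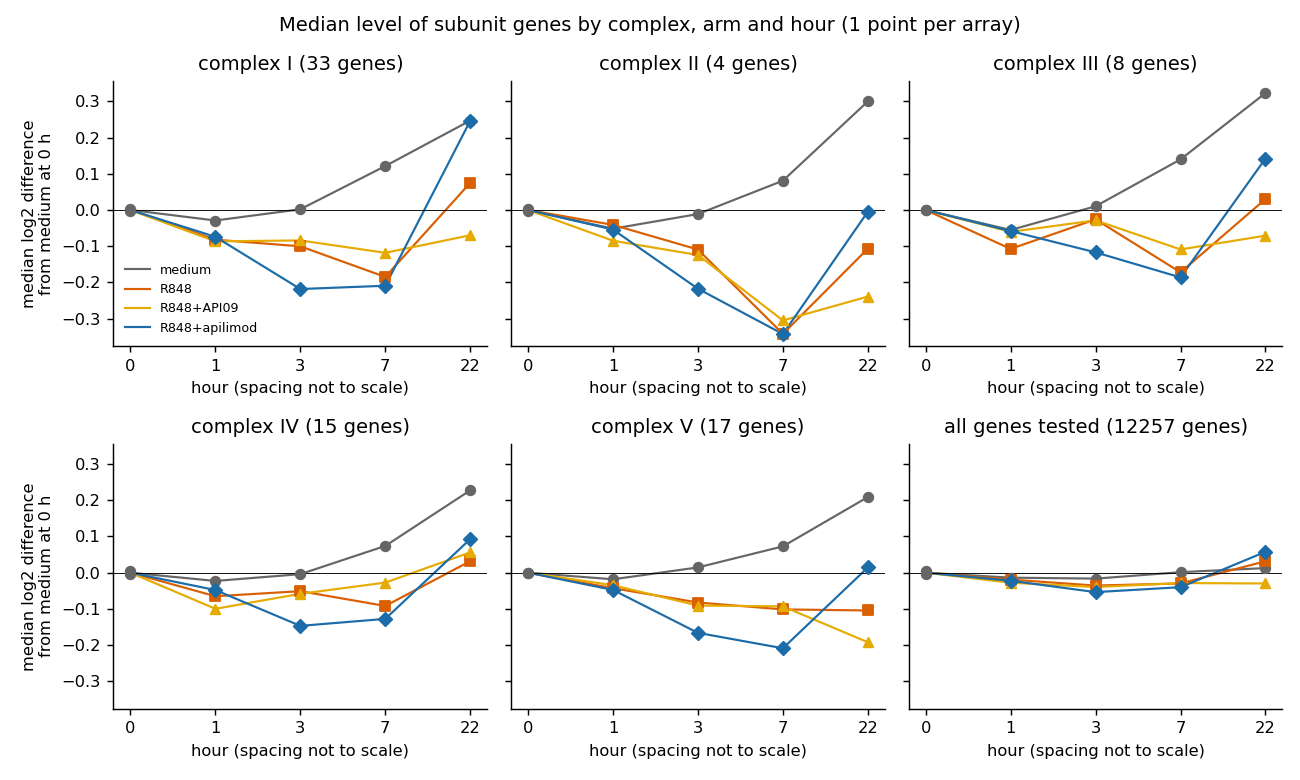
Median log2 difference from medium at 0 h over the tested members of each complex and over all genes, 1 point per array, by arm and hour (hours evenly spaced). Medium reached 0.21 to 0.32 in the 5 complexes at 22 h, the R848 and R848+API09 arrays stayed below medium at 7 and 22 h, and R848+apilimod met medium at 22 h in complex I (both 0.25) and stayed at 0.01 in complex V; these heights are as deposited and shift when arrays are centred on their medians.

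R848 lowered no member beyond the test's threshold at 1 or 3 h. At 1 h the median difference was -0.05 and 0 members were at an unadjusted p under 0.05. At 3 h the median was -0.08, 66 of 77 members lay below 0 and 3 were at an unadjusted p under 0.05 by limma, while limma with trended and robust variances called 6 lower and quantile normalization of the values 2. Over all genes, 0.702% were called in either direction at 1 h and 15.4% at 3 h.

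At 7 h, 28 of the 77 members were lower in the R848 controls than in medium and none was higher, against 18.5% of all genes lower and 11.3% higher. The members' median was -0.23, with 73 of 77 below 0, and that of all genes was -0.04. Lower members numbered 16 of 33 in complex I, 2 of 4 in II, 4 of 8 in III and 6 of 17 in V. In complex IV no member of 15 passed, with 6 at an unadjusted p under 0.05 and the smallest adjusted p at 0.0566; 5 were lower with quantile normalization and 6 without either control at 22 h. Its largest difference was in Cox7a1, at -0.42 ± 0.19 (adjusted p = 0.12). Whether complexes differ was not tested. The counts that follow, with an array left out, lack the matching share of all genes and are no result about the members as a group. The count fell to 10 without the R848 array at 7 h and to 18 without the R848+API09 array at 7 h, and rose to 48 without either control at 22 h.

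In complex I the largest fall at 7 h was in Ndufs7. This gene, for a subunit that holds an iron-sulfur cluster, read 2204 in medium, 1401 in R848, 1546 in R848+API09 and 1562 in R848+apilimod at 7 h (-0.58 ± 0.13 for R848 controls against medium, adjusted p = 0.00612). Ndufv2, another iron-sulfur subunit of the NADH-oxidising arm, and Ndufb3, an accessory subunit, differed by -0.48 ± 0.09 and -0.49 ± 0.10. Sdhd, a membrane anchor of complex II, read 1943 and 1926 in medium at 0 h and 2086 at 7 h, against 1473 in R848, 1459 in R848+API09 and 1472 in R848+apilimod at 7 h. The 3 stimulated arrays lay together, below every medium array, and the difference was -0.50 ± 0.09 (adjusted p = 0.000969). Sdhb, the iron-sulfur subunit of complex II, differed by -0.39 ± 0.10, while Sdha and Sdhc, at -0.25 ± 0.09 and -0.23 ± 0.09, had adjusted p of 0.0651 and 0.0953. In complex III, Uqcr11, Uqcr10 and the Rieske iron-sulfur protein Uqcrfs1 differed by -0.48 ± 0.10, -0.38 ± 0.09 and -0.32 ± 0.09, and in complex V, Atp5e, Atp5c1 (the gamma subunit) and Atp5h differed by -0.42 ± 0.09, -0.37 ± 0.09 and -0.33 ± 0.09. The call of Uqcrfs1 was lost without either control array at 7 h.

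At 22 h, 44 members were lower in the R848 controls than in medium and 2 were higher, against 29.1% and 16.5% of all genes. With each array centred on its median, which moved the median of all genes from -0.03 to 0.19, the split was 16 lower and 6 higher, against 18.9% and 36.8% of all genes. The median of the members was -0.29, and -0.07 after centring. Lower members numbered 14 of 33 in complex I, 4 of 4 in II, 5 of 8 in III, 8 of 15 in IV and 13 of 17 in V; with the R848+API09 array at 22 h left out these were 12, 3, 5, 6 and 13, and after centring 4, 1, 2, 3 and 6, with 3, 0, 1, 2 and 0 higher. Set against medium at 0 h, the R848 controls at 22 h had 20 lower and 13 higher members, when 33.9% of all genes were lower and 26.6% higher, and a median of -0.05. After centring the split was 6 lower and 40 higher, against 23.9% and 51.4% of all genes; as deposited, 9 were lower without either array at 0 h, and at 22 h 31 were with R848 left out and 12 with R848+API09 left out. The medium array itself lay 0.24 (median over the members) above 0 h.

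**Figure D2:**
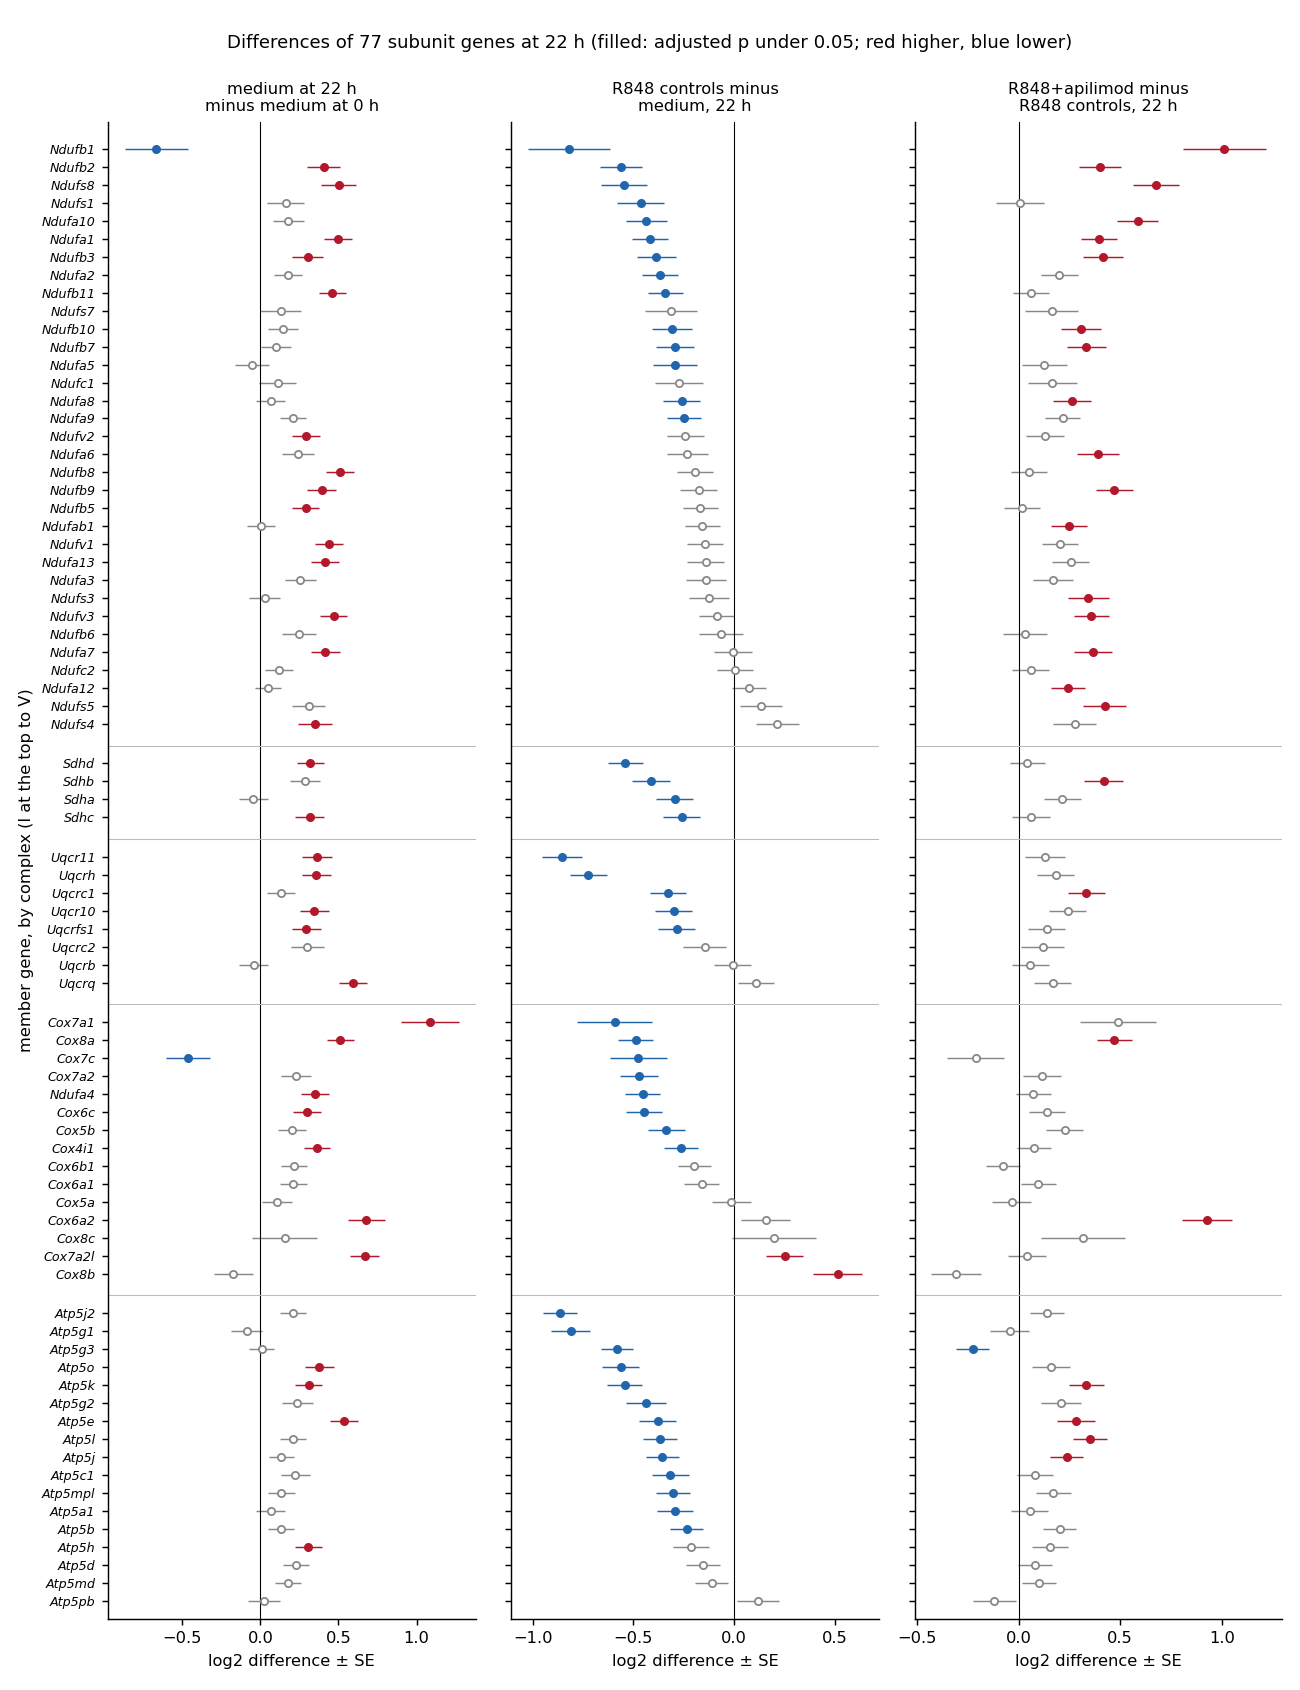
Log2 difference ± SE of each of the 77 tested members, by complex, in medium at 22 h against 0 h, in R848 controls against medium at 22 h and in R848+apilimod against R848 controls at 22 h; filled points passed the threshold (red higher, blue lower). The panels show 32 higher and 2 lower, 2 higher and 44 lower, and 25 higher and 1 lower members, and the second becomes 6 higher and 16 lower when arrays are centred on their medians.

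In complex V the largest falls at 22 h were in Atp5j2, Atp5g1 and Atp5g3. Atp5j2, the f subunit of the membrane part, read 5194 and 5220 in medium at 0 h and 5030, 5096, 5766 and 6025 at 1, 3, 7 and 22 h. In R848 it read 4834, 4463, 4525 and 3384 at those hours and in R848+API09 4680, 4604, 4660 and 3211. Both controls were lowest at 22 h, by -0.87 ± 0.08 against medium at 22 h (adjusted p = 1.61e-05) and by -0.66 ± 0.07 against 0 h. Atp5g1 and Atp5g3 are genes of the c subunit, which forms the rotating ring of the enzyme. Atp5g1 read 3505 and 3458 in medium at 0 h and 3273 at 22 h, against 1991 in R848, 1736 in R848+API09 and 1803 in R848+apilimod at 22 h. Its fall was -0.81 ± 0.10 against medium at 22 h and -0.90 ± 0.08 against 0 h (adjusted p = 2.93e-06). Atp5g3 stayed at 8140 to 8498 on all medium arrays and at 7676 to 8160 in both controls from 1 to 7 h, then read 5582 and 5459 in R848 and R848+API09 at 22 h. Its differences were -0.58 ± 0.08 against medium at 22 h and -0.57 ± 0.07 against 0 h. For these 2 genes the medium array at 22 h had not risen, at -0.09 ± 0.10 and 0.01 ± 0.08 from 0 h. The remaining c subunit gene, Atp5g2, differed by -0.44 ± 0.10 against medium at 22 h and by -0.20 ± 0.08 against 0 h (adjusted p = 0.0518). Atp5a1 and Atp5b, subunits of the catalytic part, were lower by smaller amounts, -0.29 ± 0.09 and -0.24 ± 0.08. A second bright probe set of Atp5a1 gave -0.67, so its smaller amount holds for the chosen probe set only. Atpif1, the inhibitor of ATP synthase and not a member, read 4942 in medium at 22 h, 3964 in R848 and 4085 in R848+API09, a difference of -0.30 ± 0.09 (adjusted p = 0.0181).

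In complex III the largest falls at 22 h were in Uqcr11 and Uqcrh. Uqcrh, the hinge protein that binds cytochrome c1, read 6088 and 6165 in medium at 0 h and 7859 at 22 h, against 4955 in R848, 4560 in R848+API09 and 5398 in R848+apilimod at 22 h. Uqcr11 read 1903 and 1907 at 0 h and 2454 in medium at 22 h, against 1431, 1274 and 1481 in the same 3 arms. In both genes all stimulated arrays of 22 h lay below every medium array. The differences from medium at 22 h were -0.72 ± 0.09 and -0.85 ± 0.10 (adjusted p = 9.19e-05 and 5.16e-05), and those from 0 h were -0.37 ± 0.07 and -0.49 ± 0.08. Uqcrq was higher than at 0 h, with 3350 in R848, 3173 in R848+API09 and 3664 in R848+apilimod at 22 h. It was 0.71 ± 0.07 above 0 h (adjusted p = 9.64e-06) and within 0.11 ± 0.09 of medium at 22 h. The core protein Uqcrc1 was lower by -0.33 ± 0.09 against medium at 22 h, and the other core protein, Uqcrc2, had -0.15 ± 0.11 (adjusted p = 0.28).

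All 4 genes of complex II were lower at 22 h than medium: Sdhd by -0.54 ± 0.09, Sdhb by -0.41 ± 0.10, the flavoprotein Sdha by -0.29 ± 0.09 and Sdhc by -0.26 ± 0.09. The second kept probe sets of Sdhd, Sdhc and Sdha gave -0.30, -0.10 and -0.56, so these sizes hold for the chosen probe sets only. Against 0 h, Sdha and Sdhd fell (-0.34 ± 0.07 and -0.22 ± 0.07), while Sdhb and Sdhc, at -0.13 ± 0.08 and 0.06 ± 0.08, did not pass. After centring, Sdhd kept its call against medium at 22 h and the other 3 lost it, and the difference of Sdhd from 0 h turned to 0.013. Sdhc also lost its call without the R848+API09 array at 22 h.

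With all arrays in the fit, complex IV held the 2 members that were higher than medium at 22 h. This placing depended on the R848+API09 array at 22 h. With it left out, Ndufs4 and Ndufs5 of complex I differed from medium by 0.33 and 0.24. Cox7a2l read 1456 and 1465 in the R848 and R848+API09 arrays at 7 h, below the 1744 of medium, and 3357 and 3003 at 22 h, above the 2663 of medium. The difference at 22 h was 0.25 ± 0.09 (adjusted p = 0.0455). This call was lost when any of 9 of 10 arrays was left out in turn, and the gene's other kept probe sets gave 0.03 and 0.21. Against 0 h the difference was 0.92 ± 0.08 (adjusted p = 1.75e-06). Cox8b, a muscle form of subunit 8, was dim on all arrays (15.1 to 29.1) and differed by 0.51 ± 0.12. Against 0 h its difference was 0.34 ± 0.10. Of the 8 lower members, Cox8a, Cox7a2, Cox6c and Ndufa4 differed by -0.45 to -0.49, and Cox4i1, the common form of subunit 4, by -0.26 ± 0.08. Against 0 h, Cox7a2 was lower, by -0.24 ± 0.08, while Cox8a (0.02 ± 0.07), Cox6c (-0.15 ± 0.07), Ndufa4 (-0.10 ± 0.07) and Cox4i1 (0.10 ± 0.07) did not pass. Cox7c, another subunit of the complex, was dim on all arrays (12.8 to 48.6), near the filter level of 18.1. It was lower than medium at 22 h by -0.48 ± 0.14 and lower than at 0 h by -0.94 ± 0.11. The first call was lost without the R848+API09 array, at -0.40. Cox7a1, at 48.3 and 41.4 at 0 h, read 113 in medium, 84.9 in R848, 56.5 in R848+API09 and 104 in R848+apilimod at 22 h. In the R848 controls at 22 h it was lower than in medium at 22 h (-0.59 ± 0.19, a call lost without the R848+API09 array) and higher than at 0 h (0.49 ± 0.15, adjusted p = 0.0156). In complex I the lower members were led by Ndufb1 (-0.82 ± 0.20), a dim accessory gene, Ndufb2 (-0.56 ± 0.10) and Ndufs8 (-0.55 ± 0.11). Ndufb1 read 213 and 204 in medium at 0 h and 125 at 22 h, and 85.7 and 47 in R848 and R848+API09 at 22 h. These 2 control arrays of Ndufb1 lay far apart. Its difference from 0 h was -1.49 ± 0.17 (adjusted p = 1.77e-05), while Ndufb2 and Ndufs8, at -0.16 ± 0.08 and -0.05 ± 0.09, did not pass against 0 h. The accessory subunits Ndufs4 and Ndufs5 were higher than at 0 h, by 0.56 ± 0.09 and 0.45 ± 0.09.

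Apilimod changed no member at 1 or 3 h in limma, with 1 member at each hour at an unadjusted p under 0.05, where 0% and 9.19% of all genes were called; limma with trended and robust variances called 3 lower at 3 h. The median difference at 3 h was -0.09, with 67 of 77 members below 0, against -0.03 for all genes. At 7 h, 1 member was higher and none lower, where 19.6% of all genes were called. The exception was Ndufs8, an iron-sulfur subunit on the path of electrons to ubiquinone.

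Ndufs8 read 3815 and 3943 in medium at 0 h and 3991, 3998, 4503 and 5497 at 1, 3, 7 and 22 h. With R848 it read 3786, 3658, 3406 and 4076, and with R848+API09 3543, 4018, 3607 and 3459. With R848+apilimod it read 3872, 4248, 5107 and 6012, above both controls at all 4 hours and above medium at 3, 7 and 22 h. Against the R848 controls the differences were 0.54 ± 0.11 at 7 h (adjusted p = 0.00519) and 0.68 ± 0.11 at 22 h (adjusted p = 0.000843). Of its 6 kept probe sets, the 5 bright ones had differences of 0.61 to 0.95 at 22 h and the dim sixth 0.24. Against medium at 22 h the R848+apilimod array differed by 0.13 ± 0.13.

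**Figure D3:**
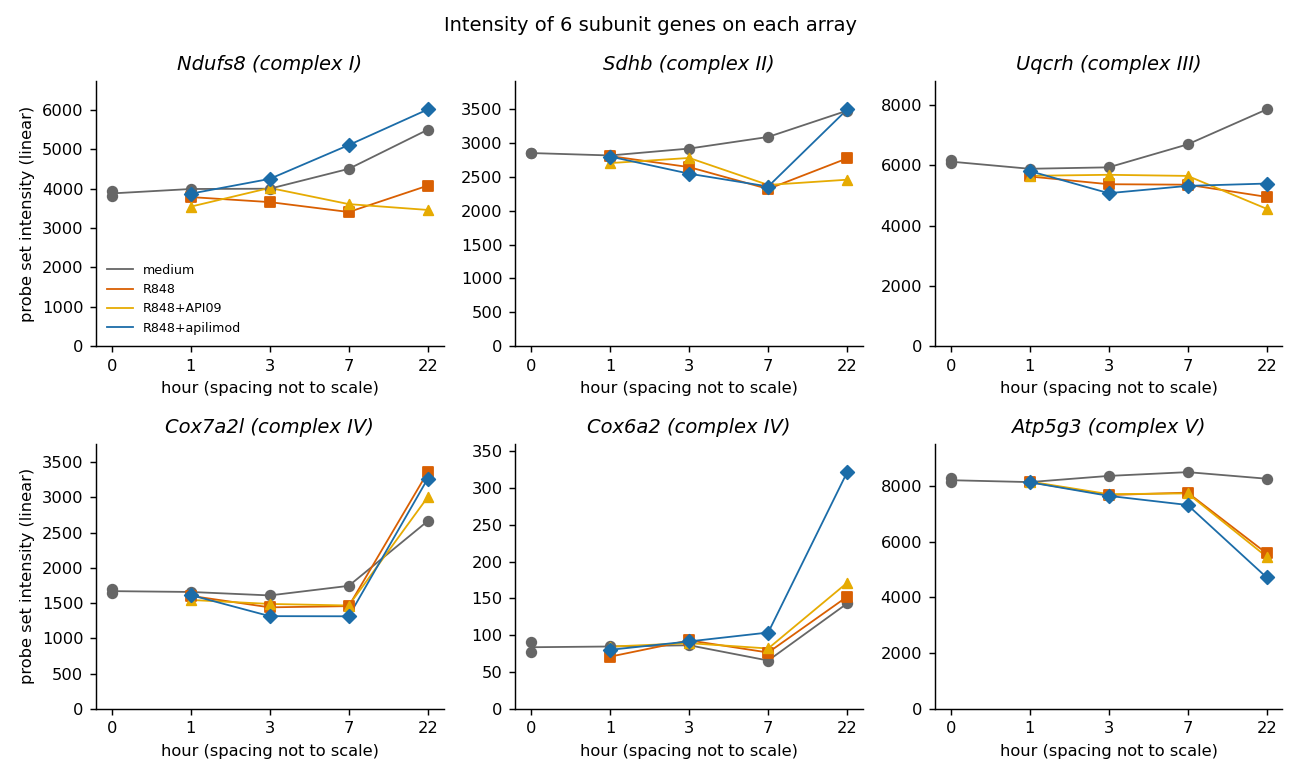
Linear intensity of 6 members on each of the 18 arrays, by arm and hour (hours evenly spaced; 2 points at 0 h). Ndufs8 and Sdhb with R848+apilimod reached 6012 and 3495 at 22 h, near or above medium (5497 and 3477), while Uqcrh (5398 against 7859) and Atp5g3 (4716 against 8261) did not; Cox7a2l had its highest value of each arm at 22 h, and Cox6a2 reached 322 with R848+apilimod against 143 to 171 in the other arms.

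At 22 h, 25 members were higher with apilimod than in the R848 controls and 1 was lower, against 20.2% and 14.3% of all genes. The comparison shares its control arrays with that of R848 against medium. The median of the members was 0.17 and that of all genes 0.03. In complex I, 17 of 33 members passed, and all 33 lay above 0, from 0.01 to 1.01. Higher members were 1 of 4 in complex II, 1 of 8 in III, 2 of 15 in IV and 4 of 17 in V. By complex, the higher members were 14, 1, 1, 3 and 4 with the R848+API09 array at 22 h left out, and 25, 2, 4, 6 and 7, or 44 in all, with the R848 array at 22 h left out. Whether the complexes differ was not tested. The Actb 3′ to 5′ ratio was 1.30 on the R848+apilimod array, 1.19 on the R848 array and 1.40 on the R848+API09 array of 22 h, and the part of RNA quality in these calls was not tested.

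Among complex I genes, Ndufb9 read 2295 in R848, 2188 in R848+API09 and 3112 in R848+apilimod at 22 h, with 2534 in medium. Ndufa10 read 1443, 1299 and 2062 in these stimulated arms, with 1858 in medium. In both genes the R848+apilimod array lay above both controls and above medium, and the differences from the controls were 0.47 ± 0.09 and 0.58 ± 0.10 (adjusted p = 0.00241 and 0.00102). Ndufb1 differed by 1.01 ± 0.20, from controls that lay far apart. Ndufs1, the largest subunit of complex I, read 1097, 873 and 982, with 1356 in medium, and differed by 0.01 ± 0.12. In complex II, Sdhb passed: 2772 and 2457 in the controls, 3495 with apilimod and 3477 in medium at 22 h (0.42 ± 0.10, adjusted p = 0.00576). Sdhd read 1714, 1607 and 1710, with 2420 in medium, a difference of 0.04 ± 0.09 from the controls. In complex III, Uqcrc1 passed, with 2564 and 2293 in the controls, 3060 with apilimod and 3048 in medium.

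Cox6a2 had the second largest difference of any member at 22 h. It is known as the heart and skeletal muscle form of subunit 6a of cytochrome oxidase. It was dim, at 65.6 to 103.7 on the arrays up to 7 h, and at 22 h it read 143 in medium, 153 in R848, 171 in R848+API09 and 322 in R848+apilimod. The difference was 0.93 ± 0.12 (adjusted p = 0.000159), and the array lay 1.08 ± 0.14 above medium at 22 h. The difference from the controls was 1.00 with the R848+API09 array at 22 h left out and 0.85 with the R848 array left out. Its common counterpart, Cox6a1, had 0.10 ± 0.09 (adjusted p = 0.43). Of the 5 muscle markers, Myh6, Myh7 and Myl2 were at most 7.79, 13.7 and 9.10 on any array, Acta1 and Ckm were above the filter level on all 18 (31.3 to 48.3 and 35.4 to 51.7), and the summed intensity of the muscle list was 95.1 to 108 in medium and 99.5 to 115 in stimulated cells. Cox8a differed by 0.47 ± 0.09 (2501, 2350 and 3366, with 3410 in medium) and lost its call when probe sets were averaged, at 0.25.

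In complex V, Atp5l, Atp5k, Atp5e and Atp5j were higher with apilimod by 0.35 ± 0.08, 0.33 ± 0.09, 0.28 ± 0.09 and 0.24 ± 0.08. Atp5l, the g subunit, read 3414 and 3351 in the controls, 4322 with apilimod and 4371 in medium. Atp5g3 was the lower one, at 5582 and 5459 in the controls and 4716 with apilimod (-0.23 ± 0.08), a call at the edge of the threshold that was lost with a pseudocount of 1. Atp5g1 and Atp5j2 had -0.04 ± 0.10 and 0.14 ± 0.08. Neither passed, and nor did Uqcr11 and Uqcrh in complex III, at 0.13 ± 0.10 and 0.18 ± 0.09.

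Set directly against medium at 22 h, the R848+apilimod array had 9 members higher and 14 lower, against 21.5% and 25.8% of all genes; after centring the split was 14 higher and 9 lower, against 33.5% and 20.8%. Complex I had 6 higher and 2 lower of 33, complex II 0 and 1 of 4, complex III 1 and 2 of 8, complex IV 2 and 5 of 15 and complex V 0 and 4 of 17. The lower members of complex V were 8 without either control at 22 h and 7 with quantile normalization. As deposited, 19 of 33 members in complex I lay above the medium array, and in complex V none of 17. These 2 counts depend on scaling, because the median log2 value of tested genes was 7.19 with R848+apilimod and 7.36 in medium. Atp5l, Atp5h and Atp5j, at -0.02, -0.06 and -0.12, lay below medium by less than these medians differ. After centring, complex I had 11 higher and 1 lower call and complex V 0 and 4. The share of all genes above medium is not given. Ndufs5 and Ndufs4, accessory subunits of complex I, were higher by 0.56 ± 0.12 and 0.49 ± 0.12, although Ndufs4 turned to -0.12 when its probe sets were averaged, and Ndufs1 was lower by -0.46 ± 0.14. Uqcrq was higher by 0.28 ± 0.10, and Cox7c and Ndufa4 were lower by -0.69 ± 0.16 and -0.38 ± 0.10. Cox7c was dim, at 12.8 with R848+apilimod and 30.3 in medium. Atp5g1, Atp5g3, Atp5j2 and Atp5o were lower, by -0.85 ± 0.11, -0.81 ± 0.09, -0.73 ± 0.10 and -0.41 ± 0.11, and so were Uqcr11, Uqcrh and Sdhd, by -0.72 ± 0.11, -0.54 ± 0.10 and -0.50 ± 0.10. This comparison shares arrays with the 2 before it and was added after the values were seen; both its groups are single arrays.

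Apilimod and API09 were compared at the same dose and the same 4 hours, with the R848 array of that hour left out. No member passed at 1 or 3 h (0% and 6.37% of all genes were called). Ndufs8 passed at 7 h, at 0.50 ± 0.14 (adjusted p = 0.033), and was the only member called of 77, with 15.7% of all genes called. At 22 h, 44 members were higher with apilimod and 2 lower, against 31% and 16.8% of all genes, and 19 and 6 when arrays were centred (20.6% and 30.5% of all genes). The standard errors at 22 h are smaller here because the pair of 22 h controls no longer adds to the spread, and the R848+API09 array is the one that stood apart. Ndufs8 differed by 0.79 (95% interval 0.58 to 1.01), Sdhb by 0.51 (0.33 to 0.68) and Cox6a2 by 0.85 (0.57 to 1.13). Atp5g1 did not pass, at 0.05 (-0.11 to 0.22), and Ndufs8 at 1 h had 0.13 (-0.18 to 0.43), intervals that do not show both compounds to act alike. Ndufb1, Ndufa10, Uqcrc1, Cox7a1 and Cox8a were higher by 1.36 ± 0.09, 0.66 ± 0.09, 0.41 ± 0.07, 0.73 ± 0.16 and 0.52 ± 0.08. Atp5g3 and Atp5pb were lower with apilimod than with API09, by -0.21 and -0.24. For Atp5pb the R848+API09 array was the high one, at 7284. It read 6169 with R848+apilimod, 6172 with R848 and 6169 in medium at 22 h.

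The change of each effect between 7 and 22 h was tested in the same fit, and the members' counts lay near or below the share of all genes. For R848, 5 of 77 members were lower and 1 higher at 22 h than at 7 h, against 15.1% and 10.3% of all genes. With centred arrays 3 were lower and 5 higher, against 12.5% and 19.1%. For apilimod, 9 were higher and none lower, against 11.3% and 8.77%; the 9 became 35 when the R848 array at 22 h was left out, 16 when R848+API09 at 22 h was, and 3 when R848+API09 at 7 h was. For R848, the lower members became 14 when the R848 array at 22 h was left out. Shares of all genes in the fits with an array left out are not given, so these moves are no result about the members as a group. The largest changes were those of Ndufb1, at -1.17 ± 0.29 for R848 and 1.39 ± 0.29 for apilimod, 2 contrasts that share the control arrays.

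Over all hours, in a fit that had arm and hour as terms, 0 of 77 members passed in any of 4 contrasts, where 0.995% of all genes passed for R848 against medium and 0% for the other 3. For R848 against medium 31 members had an unadjusted p under 0.05 in limma, with a median difference of -0.16 and 73 of 77 below 0. R848+apilimod against R848 had 2 such members, R848+API09 against R848 none and R848+apilimod against R848+API09 1, with medians of 0.01, -0.01 and 0.02. For these 4 contrasts the shares of all genes at that unadjusted p, or below 0, are not given. The counts at that p and below 0 are therefore no result about the members as a group. For Ndufs8 the difference between apilimod and API09 was 0.38 (95% interval 0.14 to 0.61, adjusted p = 0.156).

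Genes that build, feed or regulate the same system were read from lists chosen by function. At 22 h, 29.1% of all genes were lower and 16.5% higher with R848 (18.9% and 36.8% with centred arrays), and 14.3% were lower and 20.2% higher with apilimod, and the counts for coenzyme Q synthesis and the citric acid cycle lie near those for R848. Assembly factors, which put the complexes together, had 20 lower and 4 higher of 46 in the R848 controls (12 and 9 when centred). With apilimod 17 were higher and none lower, or 14 and 4 with the R848+API09 array at 22 h left out. Among them Cox20, a chaperone of cytochrome oxidase assembly, differed by -1.04 ± 0.09 with R848 and by 0.92 ± 0.09 with apilimod, and Sdhaf1 and Sdhaf3, assembly factors of complex II, rose with apilimod by 0.82 ± 0.10 and 1.08 ± 0.10. Mitochondrial ribosomal proteins had 30 lower and 7 higher of 76 with R848, 24 and 15 with the R848+API09 array left out, and 16 and 23 when centred. With apilimod 20 were higher and 3 lower, or 16 and 5 with that array left out. Coenzyme Q synthesis had 3 lower and 1 higher of 10 with R848 (3 and 4 when centred) and 4 higher and none lower with apilimod. Import genes had 10 lower and none higher of 21 with R848 (8 and 3 when centred). With apilimod they had 3 higher and 1 lower, but 1 higher and 4 lower with the R848+API09 array left out. The citric acid cycle had 4 lower and 2 higher of 13 with R848, which turned to 2 lower and 4 higher when centred, and 2 lower and none higher with apilimod, or 4 lower with the R848+API09 array left out. Its Idh2 was lower by -0.76 ± 0.10 with R848 and its Suclg2 by -0.53 ± 0.09 with apilimod. The other complex III and carrier genes had 2 lower and 1 higher of 7 with R848 (0 and 3 when centred) and 1 lower with apilimod, and Gpd2, which feeds electrons from the cytosol to ubiquinone, was higher by 1.10 ± 0.10 with R848.

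**Figure D4:**
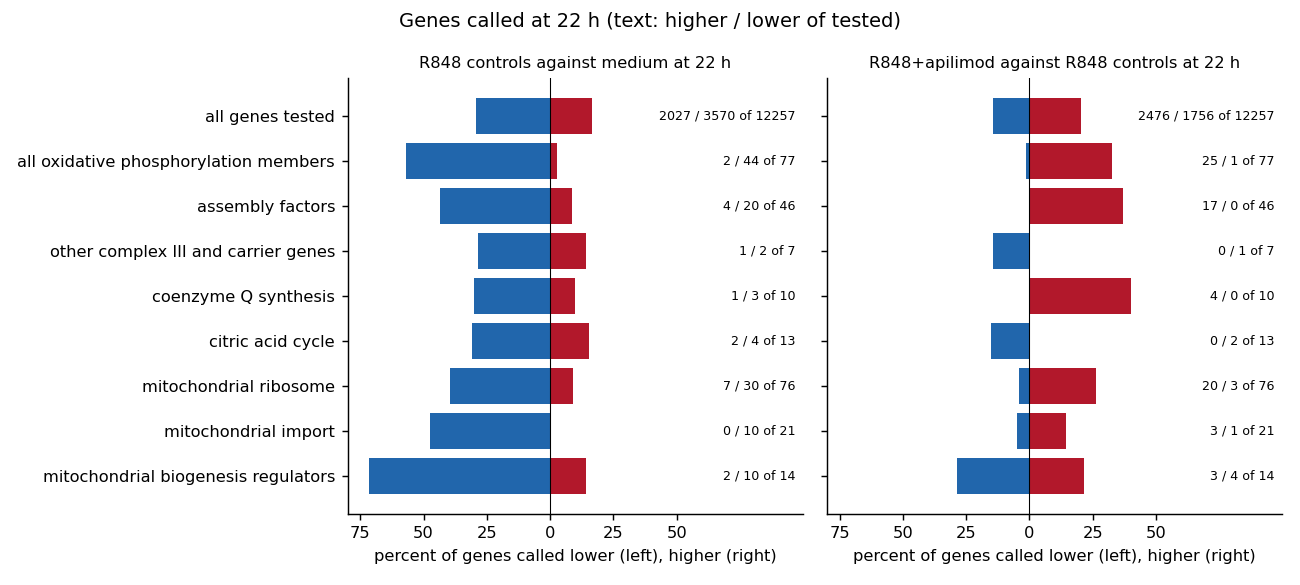
Percent of genes called lower (left, blue) or higher (right, red) at 22 h in the tested members, in 7 related lists and over all genes, for R848 controls against medium and for R848+apilimod against R848 controls. Members were lower with R848 in 44 of 77 (16 of 77 after centring) and higher with apilimod in 25 of 77, and regulators of mitochondrial biogenesis were lower with R848 in 10 of 14 (8 of 14 after centring); ribosomal protein and citric acid cycle genes change from mostly lower to mostly higher calls with R848 when centred.

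Regulators of mitochondrial biogenesis had 10 lower and 2 higher of 14 with R848 (8 and 3 when centred), with a median of -0.70 (-0.48 when centred), and 3 higher and 4 lower with apilimod, or 3 and 7 with the R848+API09 array at 22 h left out. Gabpa, the DNA-binding subunit of GABP, which binds ETS motifs, differed by -1.15 ± 0.10 with R848 (adjusted p = 6.09e-06) and by a further -0.74 ± 0.10 with apilimod. Tfam, which packages and transcribes mitochondrial DNA, differed by -0.69 ± 0.11 with R848 and by a further -0.37 ± 0.11 with apilimod. Ppargc1b, a coactivator of respiratory genes, differed by -0.87 ± 0.12 with R848 and by 0.92 ± 0.12 with apilimod, 2 comparisons that share the control arrays. Tfam, Gabpb1, Esrra and Nrf1 were chosen after their values were seen: Gabpb1 and Esrra were higher with R848 by 0.64 ± 0.12 and 0.44 ± 0.09, and Nrf1 had 0.01 ± 0.17 (adjusted p = 0.965). Of the subunits encoded in mitochondrial DNA, ND5 of complex I was the 1 gene tested. It fell in medium from 0 to 22 h (-1.17 ± 0.20) and had 0.05 ± 0.20 with R848 at 22 h. With apilimod it was higher than in the R848 controls at 22 h (0.98 ± 0.20, adjusted p = 0.00322). ND5 read 1361.3 and 1352.9 at 0 h. At 22 h it read 592.3 in medium, 688.5 in R848, 544 in R848+API09 and 1220.5 in R848+apilimod, so all 4 arms lay below 0 h.

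Of the 77 members, 46 had more than 1 kept probe set, and all kept probe sets of a gene had the same sign in 32 of them for R848 at 22 h, 34 for R848 at 7 h, 34 for apilimod at 22 h and 37 for medium. The second bright probe sets of Atp5j2 and Uqcrh gave -0.99 and -0.64 for R848 at 22 h, near the values above, and a dim probe set of Atp5j2 gave -0.07. Second probe sets of Atp5a1 and Sdha gave -0.67 and -0.56, further from 0 than the -0.29 of each chosen probe set. Those of Sdhd, Sdhc and Atp5o gave -0.30, -0.10 and -0.24, nearer to 0 than the -0.54, -0.26 and -0.56 of the chosen probe sets. The names of the chosen probe sets mark 16 of the 77 as able to match several transcripts, among them those of Uqcrh, Atp5j2, Uqcrq, Atp5e, Atp5c1, Atp5pb, Cox5b and Cox7c, so related copies can add to them.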

How the data were processed

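RNA of 18 RAW cell samples was extracted with RNeasy plus, amplified with NuGEN Ovation V2, labelled with biotin and hybridised, per the labels' protocols, to 1-colour Affymetrix arrays. The deposited values are linear intensities from 3.62 to 22099, with array medians of 17.5 to 19.2. Of tools, limma appears in the submitters' processing notes, its use unstated. How background, summarisation and normalization were done is not given in these sources, so array-wide shifts may remain. Of 45101 probe sets, 34958 had 1 gene symbol and were used, and 932 had several and were left out.

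Values were taken as log2(intensity + 16), which understates changes of dim genes. A gene was kept, by its brightest probe set, where 3 or more arrays exceeded 18.1, the median of the whole table (5456 genes had several kept). limma 3.58.1 in R 4.3.3 fitted 1 mean per arm and hour, with R848 and R848+API09 of an hour sharing 1 mean, which left 5 residual degrees of freedom. Apilimod was compared with API09 without that hour's R848 array, and fits over all hours had terms for arm and hour. The scripts were tested on simulated data.

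The members and lists were chosen with earlier results of these data known, and the comparisons of R848+apilimod with medium at 22 h were added later. Per comparison and complex, the rule listed up to 3 called members with the largest absolute difference, or the largest where none was called, with the complex II genes, the tissue-type forms of complex IV subunits, Ndufa4 and Atpif1. Of those listed for comparisons without calls, most are not printed. Members named beyond the rule, such as Uqcrc2, Ndufb9, Atp5a1, Atp5b, Atp5g2 and, at some comparisons, Cox8a, Cox6c, Cox7a2 and Atp5pb, were chosen after their values were seen.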

Additional observations from a re-analysis of the deposited data

Results flagged for a closer look

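The members below had an R848 or apilimod effect that differed between 7 and 22 h, tested as the difference of both effects in limma with Benjamini-Hochberg adjustment over all genes. Their number lies near or below the share of all genes and is no result about the members as a group. For the effect of apilimod against the R848 controls, 9 of 77 members were higher at 22 h than at 7 h and none was lower, against 11.3% and 8.77% of all genes. In complex I, the change was 1.39 for Ndufb1 (adjusted p = 0.00654), 0.64 for Ndufa10 (0.00952), 0.57 for Ndufb2 (0.0196), 0.51 for Ndufb9 (0.0201) and 0.49 for Ndufa7 (0.0238). In complex IV it was 0.60 for Cox6a2 (adjusted p = 0.0316) and 0.55 for Cox8a (0.0102), and in complex V 0.49 for Atp5l (0.0146) and 0.36 for Atp5j (0.0475). Ndufs8, the 1 member called at 7 h, was not among them.

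For the effect of R848 against medium, 5 members were lower at 22 h than at 7 h and 1 was higher, against 15.1% and 10.3% of all genes. With arrays centred on their medians the split turned to 3 lower and 5 higher. The change was -1.17 for Ndufb1 (adjusted p = 0.0130), -0.62 for Atp5g1 (0.00783), -0.54 for Atp5j2 (0.00778), -0.45 for Atp5g3 (0.0152) and -0.44 for Uqcrh (0.0281). Cox7a2l changed the other way, by 0.51 (adjusted p = 0.0168), from -0.25 at 7 h to 0.25 at 22 h.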

How the results depend on the processing

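Counts of members called under other settings are given here where they moved by over 1.5 times, and the cause was not tested unless named. The shares of all genes called under the same settings are not printed in this section. A moved count is therefore no result about the members as a group. With quantile normalization, R848 lowered 2 members at 3 h and 44 at 7 h, apilimod lowered 2 at 7 h, the change of the R848 effect from 7 to 22 h had 3 higher and 8 lower, and that of the apilimod effect 23 higher. With arrays centred on their medians, R848 lowered 17 members at 7 h and 16 at 22 h, with 6 higher at 22 h; against medium at 0 h the R848 controls at 22 h had 40 higher and 6 lower; R848+apilimod against medium at 22 h had 14 higher and 9 lower; apilimod against API09 at 22 h had 19 higher and 6 lower; the change of the R848 effect had 5 higher and 3 lower. With trended and robust variances, R848 lowered 6 at 3 h and 54 at 7 h, and apilimod lowered 3 at 3 h and 2 at 7 h and raised 40 at 22 h. The same setting gave 1 lower in medium at 1 h, 21 higher for R848 controls at 22 h against 0 h, 2 higher and 11 lower for the change of the R848 effect and 37 higher for that of apilimod. Without a filter, 0 members were lower in medium at 22 h and 15 higher in the change of the apilimod effect. With the filter at the 75th percentile, which tests fewer genes, these were 1 and 21, R848 raised 1 at 22 h, and the change of the R848 effect had 8 lower. With the mean of probe sets, R848 raised 1 at 22 h, and apilimod lowered 1 at 7 h and 2 at 22 h. With a pseudocount of 1, R848 raised 1 at 22 h, apilimod lowered 0 at 22 h, 0 were lower in medium at 22 h, 5 were higher in R848+apilimod than in medium at 22 h, and 0 passed for apilimod against API09 at 7 h. Without the 1 h arrays, 3 members were lower with R848 over all hours.

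With 1 array left out in turn, R848 lowered 0 to 3 members at 3 h and 10 to 48 at 7 h, and raised 0 to 1 at 7 h and 1 to 4 at 22 h. Apilimod lowered 0 to 1 at 3 h and 0 to 2 at 7 and 22 h, and raised 1 to 2 at 7 h and 19 to 44 at 22 h. Medium at 22 h had 12 to 48 higher and 0 to 2 lower. The R848 controls at 22 h against 0 h had 9 to 31 lower. R848+apilimod against medium at 22 h had 5 to 11 higher. The change of the R848 effect had 1 to 5 higher and 4 to 14 lower, and that of apilimod 3 to 35 higher. Over all settings, 524 counts of calls equalled the main count, 0 against 0 included, or moved by at most 1.5 times. Another 100 moved by more or went to or from 0. Among single genes with a call in either fit, 2 reversed: Sdhd in R848 controls at 22 h against 0 h, at 0.013 when centred, and Ndufs4 in R848+apilimod against medium at 22 h, at -0.12 with the mean of probe sets. Another 2727 gene values kept their side of the threshold, 124 lost their call and 64 gained one. The 2727 include any value that changed sign without a call in either fit. No paired analysis was possible because the labels give replicate numbers only for the 2 medium arrays at 0 h. Settings for the medium, R848 against 0 h, effect-change and all-hours comparisons other than the scalings were added after the data were seen, as were all for R848+apilimod against medium. Dim members (Cox8b, Cox7c, Cox7a1, Cox6a2 and Ndufb1) lie nearest to background, where the pseudocount matters most.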
